A study of Mus musculus with 18 samples.

Results

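The global control region (GCR) is a stretch of gene-free DNA 5′ of the *HoxD* cluster that holds enhancers active in the developing digits. Its contacts were read from 5C matrices of mouse chromosome 2 (mm9). All pairs of a forward and a reverse primer at least 10 kb apart were taken that have one end on a fragment with its midpoint between 74241352 and 74285356. In the ESC design this gave 509 of 4251 pairs (11.97%), and in the limb design 789 of 10068 (7.84%). The same 8 EcoRI fragments anchored them in both designs, 4 read with each primer direction. All 18 libraries were used, 14 from mouse embryonic stem cells (ESCs) and 4 from limb cell lines, and as the 2 designs differ they are described apart.

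The ESC groups were undifferentiated OS25 cells (2 libraries), OS25 cells differentiated for 3 days, the last 2 with retinoic acid (D3, 2), wild-type cells (2), Eed-/- cells (2), Ring1B-/- cells (3), and Ring1B-/- cells that carry wild-type *Ring1B* (2) or the form of *Ring1B* labelled G53 (1). The study describes a rescue with a ubiquitination-deficient mutant of *Ring1B*, and the labels do not say whether G53 is that mutant. The treatment label of the undifferentiated OS25 libraries also holds the differentiation text, so the title decided their group. The wild-type libraries are titled as the wild type of *Ring1B*. The paper lists the *Eed* mutant cells under other line names, so Eed-/- against wild type does not separate genotype from line. The limb groups were A2 and P2 (2 each), immortalised mesenchymal lines from distal forelimb buds of E10.5 Immortomouse embryos, A2 being of anterior and P2 of posterior origin. They stand for cultured cells of 1 line each, not for limb tissue, and 5C gives no marker levels by which the lines or the ESCs could be checked. Clones of the mutant ESCs were not assigned to libraries, and since the replicates are not tied to separate cultures by the labels, p-values measure the spread between these libraries.

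In 5C, fixed chromatin is cut and ligated, and each ligated pair of fragments is copied by a primer pair and sequenced, so a frequency counts ligation products and not distances. In the digit phase of limb development, enhancers of the GCR and of the other regulatory islands in the 5′ gene desert act on the 5′ *Hoxd* genes across *Lnp* and *Evx2*, while the desert 3′ of the cluster, past *Mtx2*, serves the 3′ genes in the earlier, proximal phase. Eed is a core subunit of the Polycomb complex PRC2, which methylates histone H3 at lysine 27, and Ring1B is the catalytic ubiquitin ligase of PRC1. Both complexes cover the silent *HoxD* cluster in ESCs.

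The digest of the window shows how little of the GCR the primers see. EcoRI cuts it into 13 fragments, of which 8 carry a primer, and these 8 hold 21203 of its 44005 bases (48.2%). The G+C content of the window is 43.0%, and no protein-coding gene of the annotation lies in it. The lengths run from 306 bases (mHoxD_7) to 8655 bases (mHoxD_13). Below are the downstream ends of the 8 anchors, the cut ends that identify them, on the plus strand of the mm9 genome. They are followed by those of 5 partner fragments, at *Evx2*, *Hoxd13*, *Hoxd11*, *Mtx2* and in the far 5′ desert. Those at *Evx2*, *Hoxd13* and *Hoxd11* carry the starts of these genes, and the others took part in contacts listed below as strongest. Further partners of the strongest contacts, such as mHoxD_163, are not shown. Capitals mark the EcoRI site.
mHoxD_1, chr2:74246767-74246796: ctccaaactgaagactggagccctGAATTC
mHoxD_2, chr2:74247565-74247594: ggtagcagagggaaattgttcaccGAATTC
mHoxD_4, chr2:74255973-74256002: tgagacaagagcaagctgaatttgGAATTC
mHoxD_5, chr2:74258490-74258519: gtgtcatttgagggattaagagaaGAATTC
mHoxD_7, chr2:74270673-74270702: agaacacacaaacacctattttgtGAATTC
mHoxD_8, chr2:74271859-74271888: ccaaaaaaaatcatgtagagaaggGAATTC
mHoxD_9, chr2:74272709-74272738: atttcgttgagcgaatgtcaatcaGAATTC
mHoxD_13, chr2:74285330-74285359: gagaacaccttatatgcactcatgGAATTC
mHoxD_67 (*Evx2*), chr2:74498285-74498314: aatgagtattttatttaacaaataGAATTC
mHoxD_70 (*Hoxd13*), chr2:74511662-74511691: gaggatgctccagtagaaaggagaGAATTC
mHoxD_75 (*Hoxd11*), chr2:74524291-74524320: ctcagaaagtgattattttgtttaGAATTC
mHoxD_125 (*Mtx2*), chr2:74698895-74698924: tatgtgcttttaggtatgtgccatGAATTC
hoxd_22 (far 5′ desert), chr2:73835147-73835176: tttaaatgaattaatatctgtaagGAATTC

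Frequencies are given in reads per 1000 reads of the run, as the authors normalized them. The libraries held 216419 to 2096681 reads, so that 3 reads, the limit that a count of 0 allows, come to 0.0139 reads per 1000 in the shallowest and 0.00143 in the deepest. As 5C reads are PCR copies, these limits hold for counting error alone. The GCR took 4.67% to 7.52% of the signal in ESCs and 6.79% to 7.75% in limb cells. Between 158 and 377 of the 509 ESC pairs held no read, against 20 to 167 of the 789 limb pairs. Replicates correlated over GCR pairs with a Pearson r of 0.232 to 0.363 in ESCs, 0.520 in A2 and 0.627 in P2 (log2 values across pairs, which are not independent), and single ESC pairs are therefore less certain than means over many pairs.

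The region was divided into segments along the map: the GCR itself, the stretch up to *Lnp*, the *Lnp* window, the stretch between it and Prox (which still holds the 5′ part of *Lnp*), Prox, *Evx2*, *Hoxd13* to *Hoxd8*, *Hoxd4* to *Hoxd1*, the stretch from *Hoxd1* to *Mtx2*, *Mtx2* and the 3′ desert. The limb design adds islands IV and V, island III and the far 5′ desert with islands I and II. A pair of measures is used for each. The level is the mean frequency of the GCR's pairs with a segment. The distance-matched ratio is the log2 of that mean over the mean of the same library's other pairs at the same distances (within 15%). A ratio of 0 thus equals the mean of other contacts over that distance, not a typical contact. The median ratio over all segment pairs was itself below 0, from −0.50 (D3) to −0.23 (Eed-/-) in ESCs, and −0.14 in A2 and −0.18 in P2. A value passed the test when its limma p, adjusted over all segment pairs of the design (65 in ESCs and 104 in limb), was at most 0.05.

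**Figure D1:**
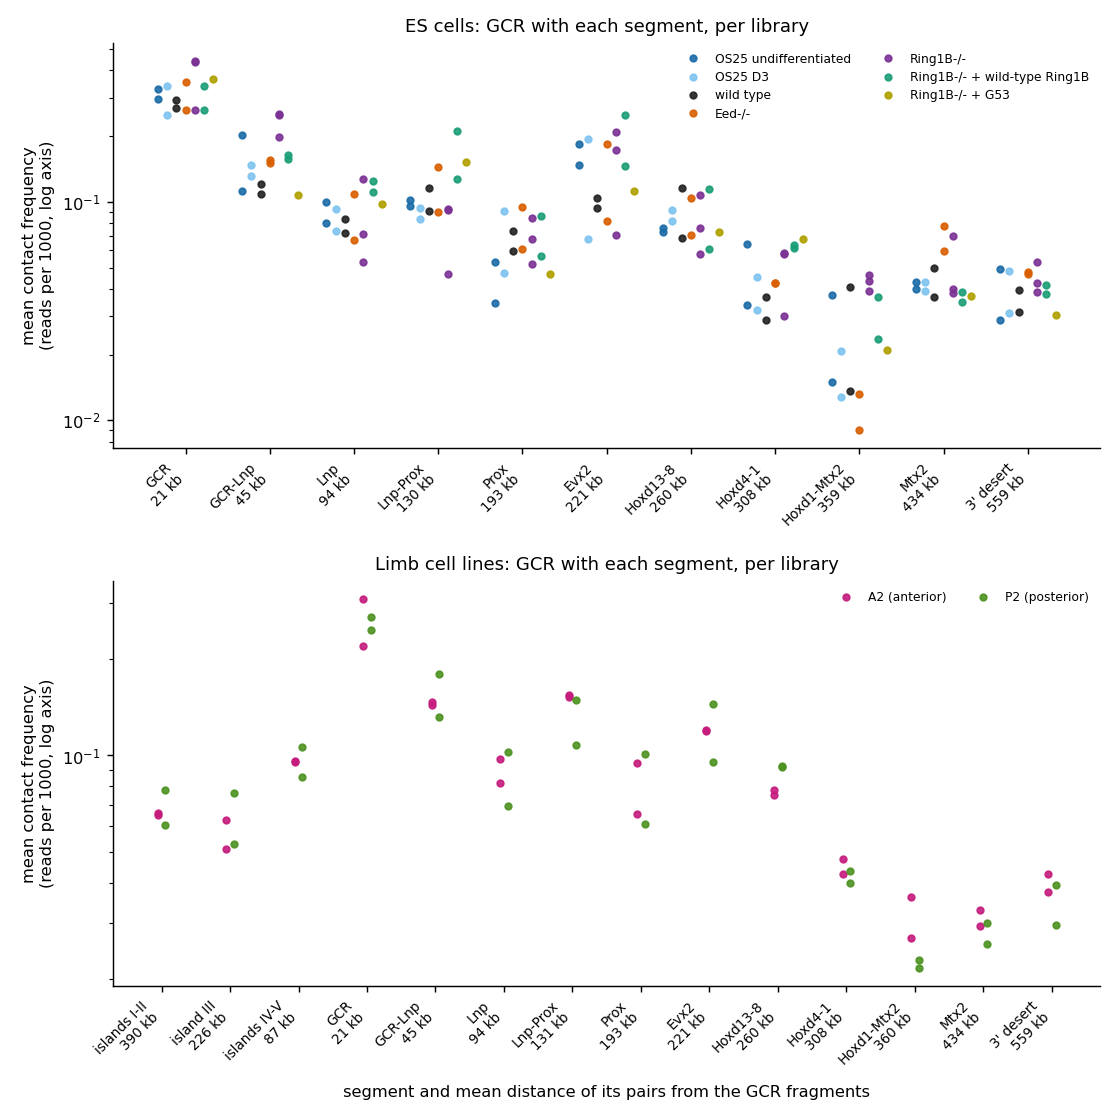
Mean 5C frequency (reads per 1000, log axis) of the GCR with each segment in map order, labelled with the mean distance of its pairs in kb, for ESCs (top) and limb cell lines (bottom). Each point is 1 library, coloured by group. The *Hoxd1*–*Mtx2* stretch lies lowest by median, at 0.0224 in ESCs and 0.0248 in limb cells.

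In limb cells, GCR contacts were above the distance-matched expectation with *Evx2* in both lines and with the stretch between *Lnp* and Prox in A2. They were below it with the segments from *Hoxd4* to *Mtx2* and with islands III to V in both lines, and with *Lnp* in P2. With primer factors, described further on, neither value above the expectation passed. In A2 cells 5 of 14 segments were below the distance-matched expectation and 2 above, and in P2 cells 6 were below and 1 above. Over all 104 segment pairs, 35.6% were below and 18.3% above in A2, and 42.3% and 19.2% in P2, so these counts are near those of the whole region. The median ratio of the GCR's segments was −0.13 in A2 and −0.23 in P2, beside −0.14 and −0.18 for all segment pairs.

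*Evx2*, the homeobox gene next to *Hoxd13* and 221 kb from the GCR, had levels of 0.120 and 0.119 reads per 1000 in A2 and 0.145 and 0.0957 in P2. The corresponding ratios were 0.41 and 0.62 in A2 and 0.57 and 0.26 in P2, above 0 in 4 of 4 libraries. The means passed the test in both lines (A2 0.51, SE 0.13, adjusted p = 0.00716; P2 0.42, SE 0.13, adjusted p = 0.0186). Contacts with the *Lnp*–Prox stretch, 131 kb away, had levels of 0.152 and 0.155 in A2 and 0.149 and 0.108 in P2, with ratios of 0.48 and 0.84 and of 0.38 and 0.25. They passed in A2 (0.66, SE 0.13, adjusted p = 0.00196) and missed in P2 (0.31, adjusted p = 0.0614). Without the highest pair of each segment pair, no segment was above the expectation in P2.

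Across the cluster the ratio stepped down. With *Hoxd13* to *Hoxd8*, levels were 0.0778 and 0.0752 in A2 and 0.0918 and 0.0924 in P2. The mean ratios did not differ from 0 beyond the test (A2 −0.05, 95% interval −0.33 to 0.23, and P2 0.13, −0.15 to 0.41). With *Hoxd4* to *Hoxd1*, the 3′ genes that are switched on first, levels were 0.0475 and 0.0424 in A2 and 0.0400 and 0.0436 in P2, and ratios were −0.61 (SE 0.13, adjusted p = 0.00239) and −0.81 (SE 0.13, adjusted p = 0.00039). The order *Evx2*, then *Hoxd13* to *Hoxd8*, then *Hoxd4* to *Hoxd1* was found in 4 of 4 libraries. The smallest margin of *Evx2* over *Hoxd13* to *Hoxd8* was 0.02 by ratio. With the 2 highest pairs left out of the expectation, *Evx2* was the higher of these in 3 of 4 libraries (lowest difference −0.01).

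The lowest ratios were those with the stretch between *Hoxd1* and *Mtx2*, 360 kb away. Its levels were 0.0359 and 0.0268 in A2 and 0.0229 and 0.0217 in P2, and its ratios −0.75 and −0.86 and −1.35 and −1.21. The means passed in both lines (A2 −0.81, SE 0.12, adjusted p = 0.000374; P2 −1.28, SE 0.12, adjusted p = 2.38e-05). *Mtx2*, which encodes a mitochondrial outer membrane protein, was also below in both (A2 −0.48, adjusted p = 0.00581; P2 −0.60, adjusted p = 0.00165), with levels of 0.0256 to 0.0327 over the 4 libraries. The 3′ desert had levels of 0.0294 to 0.0427 and did not pass (A2 −0.08, P2 −0.27).

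**Figure D2:**
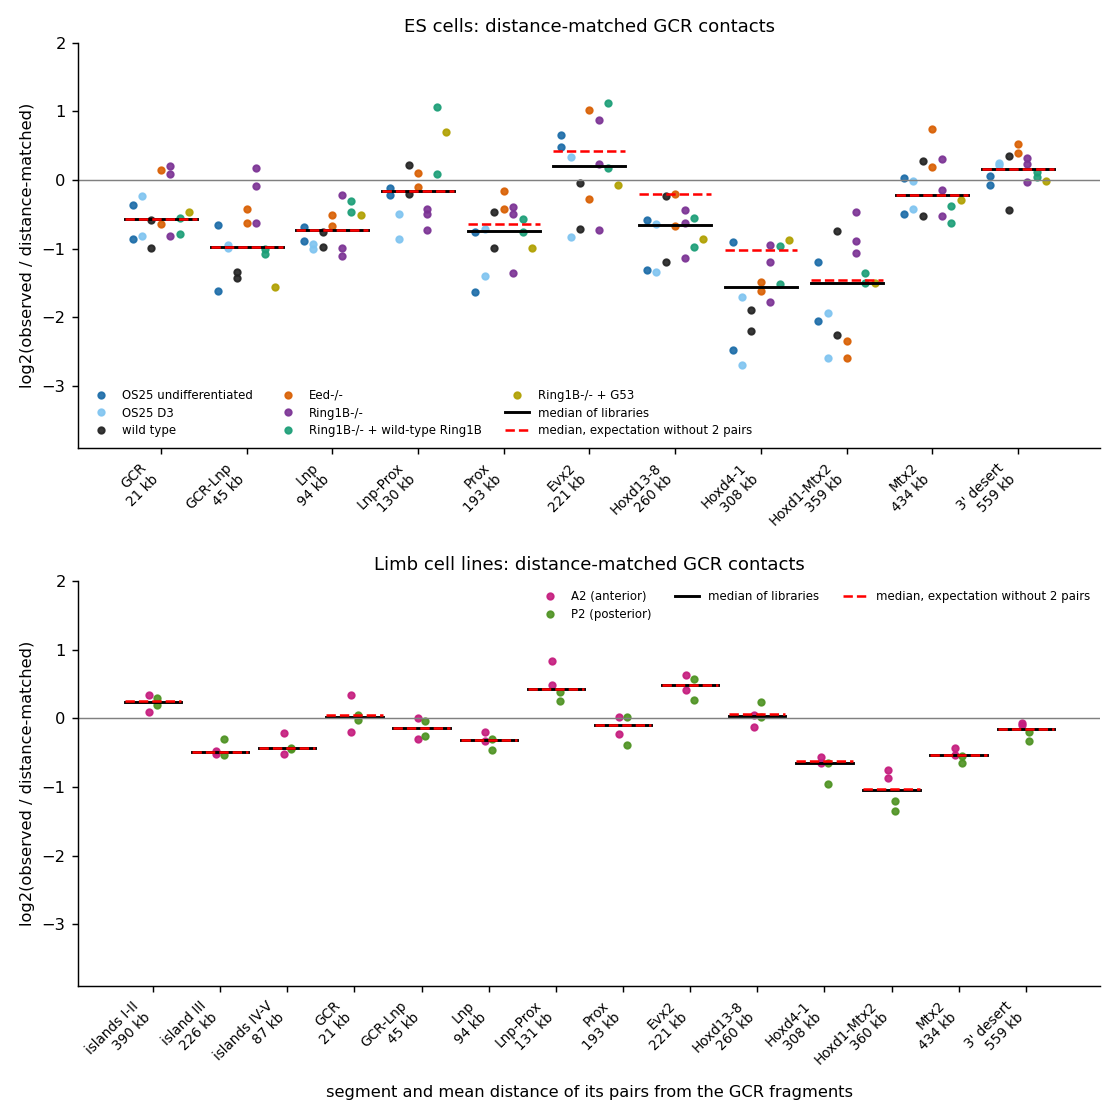
Distance-matched log2 ratio of GCR contacts with each segment in every library, ESC and limb designs apart. The grey line at 0 is the mean frequency of other contacts over the same distances. Black bars are medians of libraries, and red dashed bars are medians with the 2 highest pairs left out of the expectation. In limb cells *Evx2* lies above 0, and *Hoxd4* to *Hoxd1*, *Hoxd1*–*Mtx2* and *Mtx2* below, in 4 of 4 libraries; in ESCs the medians of *Hoxd4* to *Hoxd1* (−1.56) and *Hoxd1*–*Mtx2* (−1.49) are lowest.

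Towards the 5′ side, islands III to V lay below the expectation and the far desert did not. Island III, 226 kb from the GCR, had levels of 0.0630 and 0.0510 in A2 and 0.0764 and 0.0530 in P2, and its ratios were −0.50 (SE 0.12, adjusted p = 0.00599) and −0.42 (adjusted p = 0.0133). Islands IV and V, 87.5 kb away on average, had levels of 0.0858 to 0.106 and ratios of −0.37 (adjusted p = 0.033) and −0.44 (adjusted p = 0.0128). The far 5′ desert, 390 kb away, had levels of 0.0604 to 0.0778 and ratios above 0 in 4 of 4 libraries that did not pass (A2 0.22, P2 0.24). Near the GCR, *Lnp* passed in P2 (−0.38, adjusted p = 0.0186) and not in A2 (−0.27, adjusted p = 0.087), and the remaining segments, the GCR itself, the stretch up to *Lnp* and Prox, did not pass in either line, with ratios of −0.18 to 0.07.

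The sides could be compared at equal distance, as the limb design reaches over 500 kb from the GCR both ways. Between 50 and 150 kb and between 200 and 250 kb, the 5′ side was lower in 4 of 4 libraries, by log2 values of −0.58 to −0.13. Between 300 and 450 kb it was higher in 4 of 4 libraries, with log2 values of 0.79 to 1.69, and between 450 and 500 kb also in 4 of 4, with 0.28 to 0.71. From 150 to 200 kb and from 250 to 300 kb the libraries went both ways. At 350 to 400 kb, for example, the means were 0.0749 and 0.0883 on the 5′ side against 0.0392 and 0.0344 on the 3′ side in A2, and 0.0934 and 0.0829 against 0.0255 and 0.0239 in P2. No test was made of these windows, and they were not read with primer factors. With those factors, described below, the ratios of islands III to V on the 5′ side turned to values above 0 (0.17 to 0.33).

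**Figure D3:**
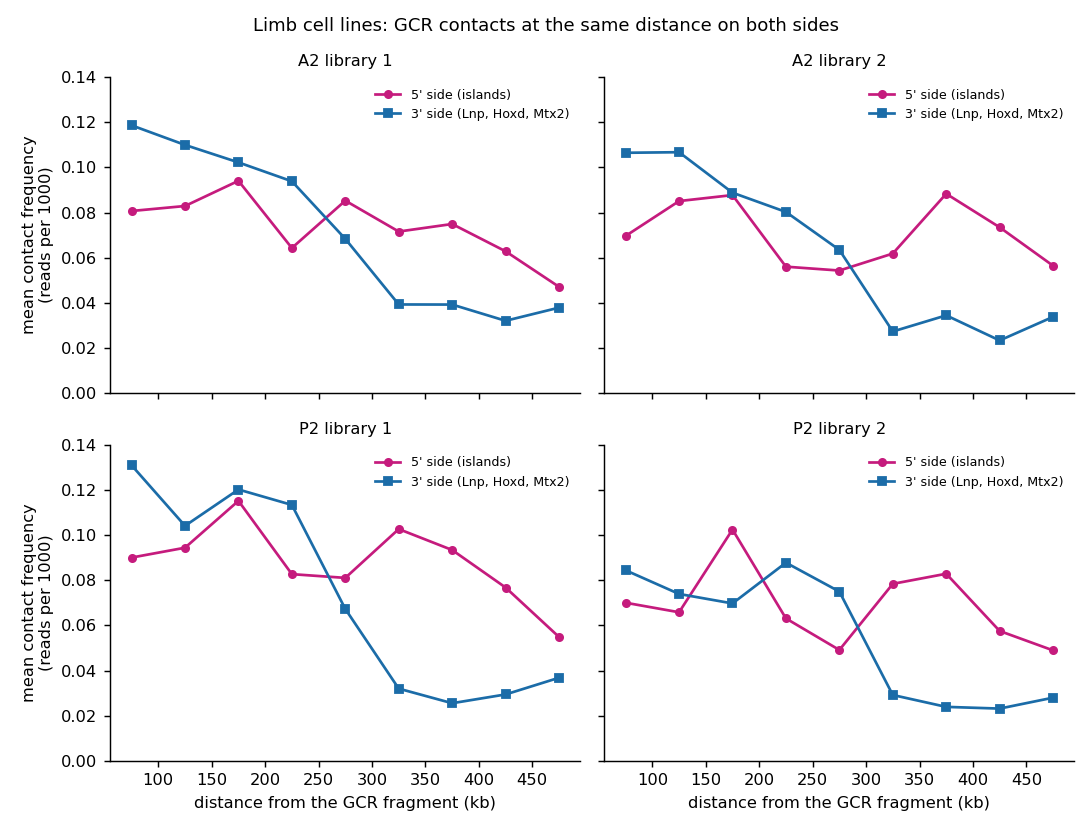
Mean frequency of GCR contacts (reads per 1000) to the 5′ and the 3′ side in 50-kb windows of distance, for each limb library. From 300 to 450 kb the 5′ side lies above the 3′ side in 4 of 4 libraries.

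The limb calls depend on how differences between primers are treated. When each fragment was divided by a factor from its own contacts over at least 120 kb, which also removes any level that a fragment shares over its long contacts, *Hoxd4* to *Hoxd1* (−0.97 and −1.16 in A2 and P2), *Hoxd1* to *Mtx2* (−0.39 and −0.86) and *Mtx2* (−0.46 and −0.43) passed below the expectation in both lines, as did the 3′ desert (−0.27 and −0.36), and the far 5′ desert passed above it (0.36 and 0.44). *Evx2* (0.17 and 0.09) and the *Lnp*–Prox stretch (0.08 and −0.13) no longer passed, *Hoxd13* to *Hoxd8* passed below (−0.71 and −0.59), and islands III to V turned to values above 0 (0.17 to 0.33), of which island III in P2 passed above the expectation (0.29, adjusted p = 0.045).

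In ESCs, GCR contacts with the 3′ part of the cluster and the stretch beyond it lay below the mean of other contacts over the same distances. This held in 6 of 6 groups tested. With primer factors, *Hoxd4* to *Hoxd1* passed below in 0 of 6 groups and *Hoxd1* to *Mtx2* in 1 of 6 (Eed-/-). The GCR was also widened to its whole stretch on the map. This takes in the stretch between the GCR and *Lnp*, and with it the fragment of a dominant pair (mHoxD_22). *Hoxd1* to *Mtx2* was then below in 6 of 6 groups. *Hoxd4* to *Hoxd1* was below in 1 of 6, with ratios under 0 in 3 and from −1.13 to 0.57. Of 11 segments, 6 were below the expectation in undifferentiated OS25 cells, 7 in D3 cells, 6 in wild type, 3 in Eed-/-, 6 in Ring1B-/- and 3 in Ring1B-/- with wild-type *Ring1B*, and none was above (0 in each group). The shares of all 65 segment pairs below were 33.8%, 46.2%, 43.1%, 24.6%, 36.9% and 30.8%, and those above were 10.8%, 10.8%, 13.8%, 7.69%, 13.8% and 12.3%, in the same order. The median ratio of GCR segments ran from −0.97 (D3) to −0.29 (Eed-/-), beside −0.50 and −0.23 for all segment pairs of these groups.

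The *Hoxd1*–*Mtx2* stretch had the lowest median level over libraries, though not the lowest level in each library. Its levels were 0.0376 and 0.0150 reads per 1000 in undifferentiated OS25 cells, 0.0128 and 0.0208 in D3, 0.0136 and 0.0408 in wild type and 0.00907 and 0.0133 in Eed-/-. They were 0.0391, 0.0464 and 0.0434 in Ring1B-/-, 0.0237 and 0.0365 with wild-type *Ring1B* and 0.0210 with the G53 form. The Ring1B-/- libraries lay together at the upper end, while the wild-type pair spanned most of the range. Ratios were below 0 in 14 of 14 libraries, and the group means passed in 6 of 6, from −2.47 (Eed-/-, SE 0.33, adjusted p = 0.000352) to −0.81 (Ring1B-/-, SE 0.27, adjusted p = 0.0329).

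With *Hoxd4* to *Hoxd1*, levels were 0.0338 and 0.0643 in undifferentiated OS25 cells, 0.0320 and 0.0454 in D3, 0.0367 and 0.0289 in wild type and 0.0423 and 0.0425 in Eed-/-. In Ring1B-/- they were 0.0578, 0.0583 and 0.0302, and with wild-type *Ring1B* and the G53 form 0.0617, 0.0635 and 0.0673. Both Eed-/- libraries lay above both wild-type libraries, and the last 3 libraries above those of wild type, D3 and Eed-/-. Ratios were again below 0 in 14 of 14 libraries and passed in 6 of 6 groups, from −2.20 (D3, SE 0.36, adjusted p = 0.00054) to −1.24 (with wild-type *Ring1B*, SE 0.36, adjusted p = 0.0148).

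*Evx2* stood above its neighbours in most libraries, but with primer factors it lay below Prox in most groups. Its levels were 0.185 and 0.147 in undifferentiated OS25 cells, 0.193 and 0.0673 in D3, 0.104 and 0.0943 in wild type, 0.183 and 0.0821 in Eed-/-, 0.172, 0.210 and 0.0703 in Ring1B-/-, 0.249 and 0.147 with wild-type *Ring1B* and 0.112 with G53. Replicates lay far apart in D3, Eed-/- and Ring1B-/-, and no group passed (median ratio over libraries 0.20, from −0.83 to 1.13). The *Evx2* ratio exceeded that of *Hoxd4* to *Hoxd1* in 14 of 14 libraries and that of *Hoxd13* to *Hoxd8* in 12 of 14, and the latter exceeded *Hoxd4* to *Hoxd1* in 13 of 14. With the 2 highest pairs left out of the expectation, the counts were 14, 11 and 14. These are counts of libraries within which the values share depth and anchors, with no test. With primer factors, the *Evx2* ratio was below that of Prox in D3 (1.21 against 1.27), wild type (0.50 against 1.35) and Eed-/- (0.62 against 1.11). The same held in Ring1B-/- (0.65 against 1.01) and with wild-type *Ring1B* (0.72 against 1.12). In undifferentiated OS25 cells *Evx2* was above Prox (0.95 against 0.49).

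Closer in, the stretch between the GCR and *Lnp* was below the expectation in 4 of 6 groups, all but Eed-/- and Ring1B-/-, at levels from 0.108 to 0.254 (median 0.153). Without pairs inside *Evx2* and the *Hoxd* cluster in the expectation this held in 2 groups (D3 and wild type). *Lnp* was below the expectation in 5 of 6 groups, all but Ring1B-/- with wild-type *Ring1B*, at levels from 0.0529 to 0.127 (median 0.0880) and ratios from −1.10 to −0.21. Prox, which holds a further digit enhancer, was below in 4 of 6 groups at 0.0346 to 0.0950 (median 0.0604), and *Hoxd13* to *Hoxd8* in 3 of 6 at 0.0580 to 0.116 (median 0.0757). The GCR itself passed below in 1 group (wild type, −0.79, adjusted p = 0.0349), and the *Lnp*–Prox stretch in 2 (D3 and Ring1B-/-). Past the cluster, *Mtx2* (0.0348 to 0.0774) and the 3′ desert (0.0287 to 0.0530) did not pass in any group. The *Mtx2* ratio was above that of the *Hoxd1*–*Mtx2* stretch in 14 of 14 libraries.

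The ESC ratios depend on the contacts that set the expectation. A single pair between *Hoxd4* and the 3′ desert (mHoxD_85 with mHoxD_163, 287 kb) took 1.08% to 7.70% of all reads. When it and the next highest pair were left out of the expectation, a choice made after seeing the data, *Hoxd1* to *Mtx2* stayed below in 6 of 6 groups and *Hoxd4* to *Hoxd1* in 5, Ring1B-/- with wild-type *Ring1B* being lost (−0.58, adjusted p = 0.0598), while *Hoxd13* to *Hoxd8* fell from 3 groups to 0. With primer factors, only *Hoxd1* to *Mtx2* in Eed-/- stayed below (−2.01, adjusted p = 0.0445), *Hoxd4* to *Hoxd1* kept ratios under 0 in 6 of 6 groups without passing (−1.16 to −0.23), and Prox passed above the expectation in 4 groups. The GCR–*Lnp* stretch then passed above in D3 (1.79), Eed-/- (0.97) and Ring1B-/- (1.33). The GCR itself did so in D3 (1.41) and Ring1B-/- (1.39), and *Lnp* in Eed-/- (1.58). The calls below of GCR–*Lnp* in D3 and of *Lnp* in Eed-/- were thus reversed. So were those of Prox in D3 (1.27), wild type (1.35) and Ring1B-/- (1.01).

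Fragments that carry a gene's start allowed a closer view of the cluster. *Evx2*, *Hoxd12*, *Hoxd8*, *Hoxd3* and *Hoxd1* pair with the anchors mHoxD_2, _5, _8 and _13, and *Hoxd13*, *Hoxd11* and *Hoxd4* with mHoxD_1, _4, _7 and _9, with 4 pairs each. Since the anchors differ, values are compared only within each set. Within a set the fragments still differ in length, for example 15260 bases for *Evx2* against 2268 for *Hoxd12*. The starts were not read with primer factors, and an effect of length was not tested. The starts of *Lnp*, *Hoxd10*, *Hoxd9* and *Mtx2* lie on no fragment of the matrices.

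In limb cells the *Hoxd13* start had mean frequencies of 0.133 and 0.108 in A2 and 0.208 and 0.176 in P2, and both P2 libraries were above both A2 libraries. The *Hoxd11* start had 0.130 and 0.172 in A2 and 0.153 and 0.123 in P2, so there the lines overlapped. Both were above the distance-matched expectation in 4 of 4 libraries, and the *Hoxd4* start, at 0.0379, 0.0692, 0.0141 and 0.0680, in 1 of 4. In the other set, the *Evx2* start (0.105 and 0.126 in A2, 0.114 and 0.0934 in P2) was above the expectation in 4 of 4, while *Hoxd12* (0.0344 to 0.0543), *Hoxd8* (0.0224 to 0.0296) and *Hoxd1* (0.0388 to 0.0606) were above it in 0 of 4. *Hoxd3* (0.0386 to 0.0825) was above in 1 of 4.

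In ESCs the starts had a wider spread, and their place relative to the expectation depended on the dominant pairs. In 14 libraries the *Evx2* start had 0.0645 to 0.365 reads per 1000 (median 0.214) and was above the expectation in 10. The *Hoxd11* start had 0.0676 to 0.378 (median 0.182, above in 8) and the *Hoxd13* start 0.0387 to 0.324 (median 0.138, above in 7). With the 2 highest pairs left out of the expectation, these counts were 11, 11 and 12. The *Hoxd12*, *Hoxd8*, *Hoxd4*, *Hoxd3* and *Hoxd1* starts had medians of 0.0272, 0.0374, 0.0379, 0.0253 and 0.0595. They were above in 2, 0, 0, 0 and 1 of 14 libraries, and in 2, 0, 1, 1 and 4 without the 2 highest pairs. Some held no read, among them *Hoxd12* in both Eed-/- libraries and *Hoxd4* and *Hoxd3* in both wild-type libraries. With 4 pairs per start and most single ESC pairs at few reads, no test was made between starts.

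**Figure D4:**
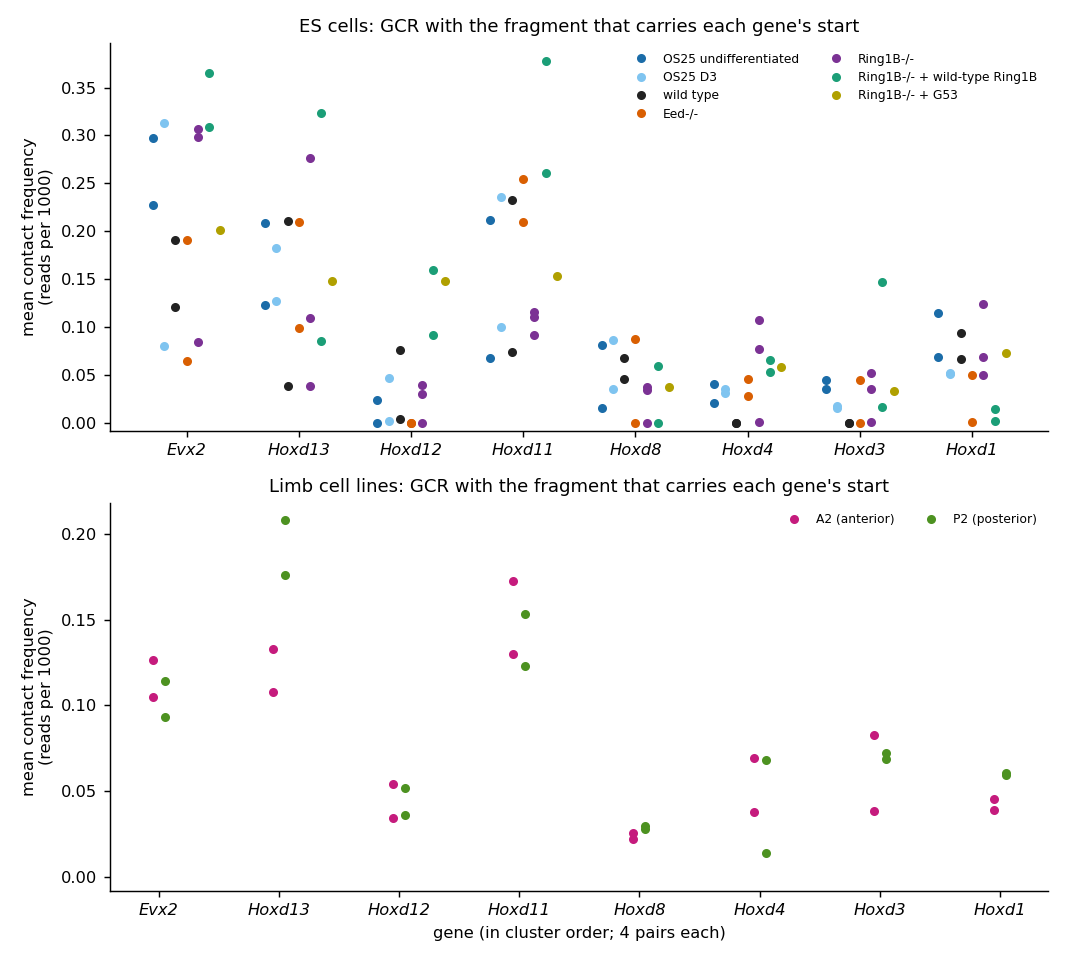
Mean frequency (reads per 1000) of the 4 GCR pairs of each start-site fragment, by library, for ESCs (top) and limb cell lines (bottom), with genes in cluster order. *Evx2* has the highest median among the genes that pair with mHoxD_2, _5, _8 and _13, and *Hoxd13* and *Hoxd11* lie above *Hoxd4* by median in both designs.

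The 8 anchors were unequal. For contacts over at least 100 kb, mHoxD_1 at the 5′ edge of the window had the highest mean in 12 of 14 ESC libraries (0.0761 to 0.168, median 0.115) and in 4 of 4 limb libraries (0.0943, 0.0988, 0.107 and 0.0781). mHoxD_5 came next by median, at 0.0801 in ESCs and 0.0731 in limb cells. The longest anchor, mHoxD_13, had medians of 0.0405 and 0.0536, and the shortest, mHoxD_7, 0.0241 and 0.0457. As the files give it, mHoxD_1 starts 1108 bases inside its EcoRI fragment, at the first base of the ESC region.

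The single contacts furthest above their distance-matched expectation, among pairs at least 20 kb apart with a group mean above 0.05, mostly used mHoxD_1. Its contact with mHoxD_125 in *Mtx2*, 454 kb away, was among the 5 strongest in 6 of 7 ESC groups. It had 0.260 and 0.491 reads per 1000 in undifferentiated OS25 cells, 0.368 and 0.469 in D3, 0.337 and 0.750 in wild type, 0.340 and 0.883 in Eed-/-, 0.614, 0.164 and 0.182 in Ring1B-/- and 0.594 with the G53 form. Replicates of one group thus differed widely, most in Ring1B-/-. The contact of mHoxD_8 with mHoxD_163, 575 kb away in the 3′ desert, was the first in undifferentiated OS25 (1.32 and 0.225) and D3 cells (0.633 and 0.245), but mHoxD_163 also forms the dominant pair of the design.

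In limb cells the first contact of A2 was mHoxD_1 with hoxd_22 in the far 5′ desert, 415 kb away, at 0.147 and 0.296, and P2 had 0.261 and 0.275 for the same pair. The P2 list held mHoxD_1 with mHoxD_70, which carries the *Hoxd13* start 265 kb away (0.355 and 0.280), and mHoxD_5 with mHoxD_69 at 245 kb (0.376 and 0.241). The A2 list held mHoxD_5 with mHoxD_40 in *Lnp* at 121 kb (0.279 and 0.369). These contacts were picked for their size and are given as values.

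The 5 comparisons asked whether GCR contacts differed with differentiation, with loss of *Eed* or *Ring1B*, with *Ring1B* put back, and between posterior and anterior limb cells. In none did a segment pass, by level or by ratio: 0 of 11 in each ESC comparison and 0 of 14 in limb. At an unadjusted p of 0.05, levels of 0, 0, 1, 1 and 0 segments and ratios of 0, 1, 1, 2 and 1 were under the threshold, for D3 against undifferentiated OS25 cells, Eed-/- and Ring1B-/- against wild type, Ring1B-/- with wild-type *Ring1B* against Ring1B-/-, and P2 against A2. Over all segment pairs, 0%, 7.69%, 1.54%, 0% and 0% passed by level after adjustment, and 0%, 9.23%, 1.54%, 0% and 0% by ratio. Of 63 ESC and 138 limb bin pairs (20 and 24 kb) with an end in the GCR none passed (limma). At an unadjusted p of 0.05, 0, 5, 7, 6 and 1 of them were under the threshold. Over all bin pairs, 0.18%, 1.26%, 0.359%, 0.18% and 0% passed after adjustment. Shares at the unadjusted threshold were not counted over all segment or bin pairs, so the unadjusted counts cannot be set against the whole region. The Eed-/- and Ring1B-/- comparisons share the wild-type libraries, and both *Ring1B* comparisons share the Ring1B-/- libraries.

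As a whole, the GCR's mean frequency was 0.0612 in D3 against 0.0635 in undifferentiated OS25 cells (log2 −0.04, 95% interval −0.44 to 0.36, adjusted p = 0.848). It was 0.0691 in Eed-/- (0.19, −0.22 to 0.59, adjusted p = 0.564) and 0.0746 in Ring1B-/- (0.27, −0.10 to 0.64, adjusted p = 0.415) against 0.0583 in wild type. With libraries scaled to their signal the Eed-/- difference passed (0.41, adjusted p = 0.0208), and the GCR took 7.20% and 6.42% of the signal in Eed-/- against 4.97% and 4.80% in wild type. With wild-type *Ring1B* it was 0.0725 (−0.03 against Ring1B-/-, −0.40 to 0.34, adjusted p = 0.898). P2 cells had 0.0685 and A2 cells 0.0693 (−0.02, −0.38 to 0.35, adjusted p = 0.985). As folds, the intervals ran from 0.860 to 1.51 in Eed-/- and from 0.932 to 1.55 in Ring1B-/-.

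The nearest to the threshold was the stretch between the GCR and *Lnp* in Ring1B-/- cells. With the GCR widened to its whole stretch on the map, this stretch becomes part of the GCR. The levels of the stretch were 0.197, 0.250 and 0.254 in Ring1B-/- and 0.108 and 0.121 in wild type, without overlap. The difference was 0.91 on the log2 scale (SE 0.25, 95% interval 0.36 to 1.46, adjusted p = 0.055), a 1.88-fold higher level, and 1.20 by ratio (SE 0.31, adjusted p = 0.0733). Levels were 0.157 and 0.165 with wild-type *Ring1B*, between those of wild type and Ring1B-/-, and 0.108 with the G53 form. With wild-type *Ring1B* the value was −0.48 against Ring1B-/- (adjusted p = 0.569). The Ring1B-/- difference passed by level and by ratio without Ring1B-/- replicate 1 (1.02, adjusted p = 0.0353; ratio 1.43, adjusted p = 0.0298) and by level with libraries scaled to their signal (1.04, adjusted p = 0.0404), and with primer factors it was 0.04 (adjusted p = 0.968). Over the 16 alternatives tried, its adjusted p ran from 0.0353 to 0.968.

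The *Lnp*–Prox stretch differed most with *Ring1B* put back. Its levels were 0.210 and 0.128 with wild-type *Ring1B* against 0.0921, 0.0928 and 0.0469 in Ring1B-/-, a log2 difference of 0.96 (SE 0.30, adjusted p = 0.157), and of 1.12 by ratio (SE 0.29, adjusted p = 0.185). The G53 library had 0.152, and wild-type cells had 0.116 and 0.0909. The higher of the values with wild-type *Ring1B* comes from the shallowest library. By ratio the difference passed without the deeper of these libraries (1.61, adjusted p = 0.0197), which leaves that shallowest library alone, and was 0.63 (adjusted p = 0.521) without the shallowest.

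In Eed-/- cells the GCR–*Lnp* stretch had 0.151 and 0.156 against 0.108 and 0.121 in wild type, with a ratio difference of 0.86 (SE 0.34, adjusted p = 0.101). *Mtx2* had 0.0774 and 0.0597 against 0.0365 and 0.0497 (log2 0.49, adjusted p = 0.355), again without overlap. Such a lack of overlap was common with 2 libraries per group: it was found for 5 of 11 levels and 6 of 11 ratios. It was not counted over all segment pairs, so these counts cannot be read as particular to the GCR. The *Hoxd1*–*Mtx2* stretch was lower by ratio (−0.97, adjusted p = 0.195) and passed only without wild-type replicate 1 (−1.73, adjusted p = 0.0361). Upon differentiation, Prox had 0.0908 and 0.0472 in D3 against 0.0346 and 0.0531 (0.45, adjusted p = 0.719), which overlap.

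Between limb lines, the *Hoxd1*–*Mtx2* stretch had the largest difference by ratio, being lower in both P2 than in both A2 libraries (−0.47, SE 0.17, 95% interval −0.85 to −0.10, adjusted p = 0.966, limma). *Hoxd13* to *Hoxd8* was higher in P2 than in A2 (0.0918 and 0.0924 against 0.0778 and 0.0752), by 0.22 on the log2 scale (adjusted p = 1.00). With 2 libraries per line, differences of this size did not pass.

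**Figure D5:**
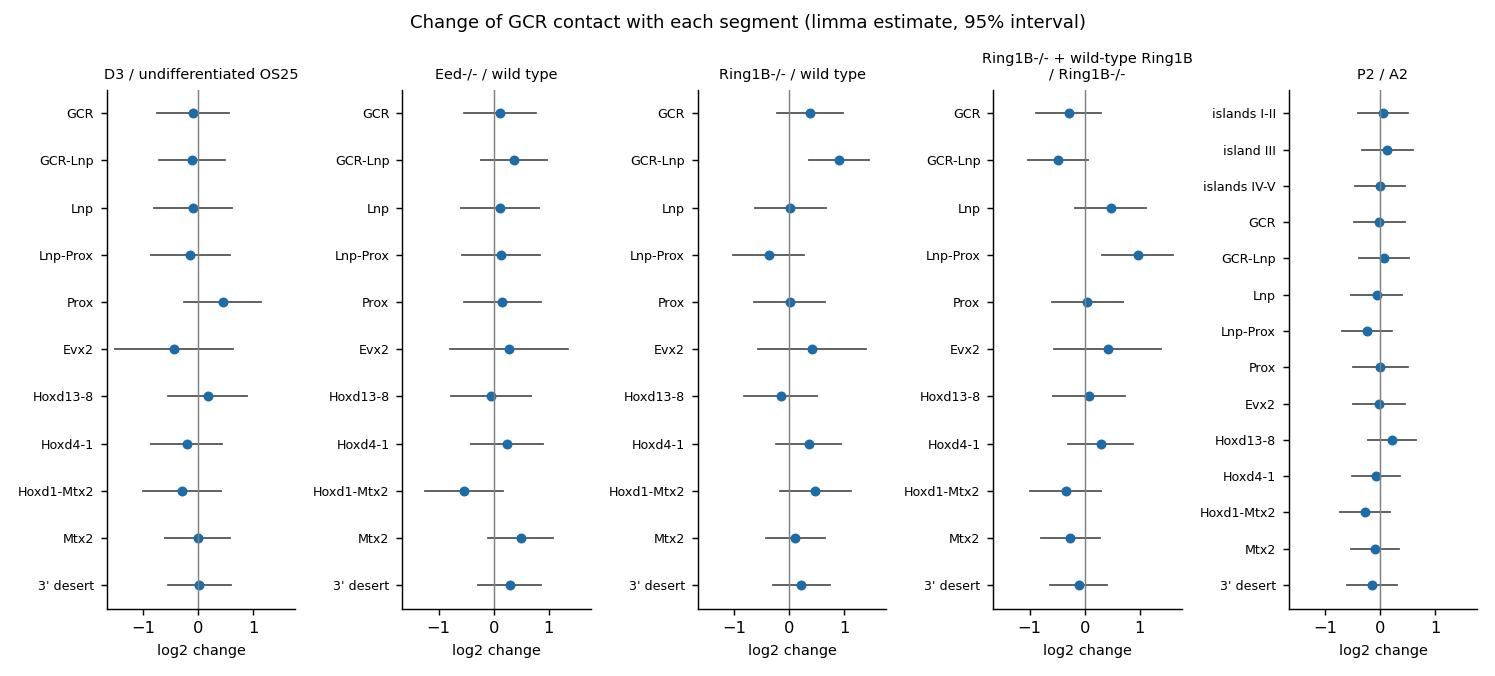
Log2 difference in level of GCR contacts with each segment in the 5 comparisons, as point estimates with 95% intervals from limma. No segment passes after adjustment, and the GCR–*Lnp* stretch in Ring1B-/- against wild type (0.91) lies nearest to the threshold.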

How the data were processed

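The deposited files are 18 matrices of signal values, 1 per library. The authors ran their Ion Torrent reads through a 5C pipeline on Galaxy and gave each contact as reads per 1000 reads of the run. Coordinates are mm9, and for the aligner no name was found in the sources used here. This scaling makes a frequency depend on all other contacts of the library, so a few dominant pairs lower the rest. Nonzero values were whole multiples of 1 step per library, from which total reads were taken; contacts between primers of the same direction numbered 0. Replicates of a group differed by more than sampling noise (chi-square per degree of freedom 18.4 to 148).

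Pairs under 10 kb apart were left out. Segments were read from the study's map, and fragments were assigned by midpoint. Levels were tested as log2(mean + 0.02), so differences of low levels are understated. Ratios were log2 of observed over expected means, 0.005 added to each, the expected mean coming from pairs without a GCR end in the same library within 15% of the distance, at least 20 for each GCR pair. Limma 3.58.1 in R 4.3.3 compared groups and tested group means against 0, two-sided, with 1 estimate of spread over the 14 ESC or the 4 limb libraries and Benjamini-Hochberg adjustment over all 65 or 104 segment pairs, over 557 or 1146 bin pairs with a mean above 0.02, or over all anchors. The single G53 library gave values only. Strongest contacts were the 5 per group furthest above expectation. The members, segments and lists were chosen with earlier results of these data known. The procedure was tested on simulated data. Alternatives are given with their effects in the closing section. Means and ratios came from Python 3.11.15 (numpy 2.4.6, scipy 1.17.1), and plots from matplotlib 3.10.9.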

Additional observations from a re-analysis of the deposited data

How the results depend on the processing

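Over all alternatives, 426 of 453 counts of calls stayed within 1.5 times the main count, 75 of 76 values of the GCR as a whole (14 of them with another sign, none past the threshold) and 2087 of 2094 single differences (200 with another sign below the threshold) kept their side of the threshold, and so did 1215 of 1341 single group ratios. With primer factors, the counts of segments below the expectation became 0 (undifferentiated OS25), 0 (D3), 0 (wild type), 1 (Eed-/-), 0 (Ring1B-/-) and 0 (with wild-type *Ring1B*), and those above 3 (D3), 1 (wild type), 3 (Eed-/-), 3 (Ring1B-/-), 1 (A2) and 2 (P2). The ratios that passed under one of these settings and changed sign were then, in undifferentiated OS25, GCR–*Lnp* 0.32, *Lnp* 0.57, Prox 0.49 and *Hoxd13* to *Hoxd8* 0.31. In D3 they were the GCR 1.41, GCR–*Lnp* 1.79, *Lnp* 0.84, *Lnp*–Prox 0.83, Prox 1.27 and *Hoxd13* to *Hoxd8* 0.51. In wild type they were the GCR 0.64, GCR–*Lnp* 0.82, *Lnp* 0.30 and Prox 1.35, and in Eed-/- GCR–*Lnp* 0.97, *Lnp* 1.58 and Prox 1.11. In Ring1B-/- they were the GCR 1.39, GCR–*Lnp* 1.33, *Lnp* 0.44, *Lnp*–Prox 0.35, Prox 1.01, *Hoxd13* to *Hoxd8* 0.12 and *Hoxd1*–*Mtx2* 0.29, and with wild-type *Ring1B* GCR–*Lnp* 1.10. In A2 they were island III 0.17 and islands IV and V 0.33, and in P2 island III 0.29, islands IV and V 0.29 and *Hoxd13* to *Hoxd8* −0.59. The factor of a fragment comes from its own long contacts, so by construction it also removes a level shared by them. Without pairs inside *Evx2* and the cluster in the expectation, the GCR's own ratio in wild type was 0.0036. With the GCR widened to its whole stretch on the map, which takes in mHoxD_22 and its dominant pair, *Lnp*–Prox was 1.09 in Eed-/- against wild type and −0.90 in wild type, and *Hoxd4* to *Hoxd1* 0.57 in wild type, 0.12 in Ring1B-/- and 0.35 with wild-type *Ring1B*; counts below became 1 (Eed-/-) and 2 (Ring1B-/-), and 2 ratios differed in Eed-/-. Without the highest pair of each segment pair, 7 segments were below with wild-type *Ring1B* and 0 above in P2, and with values capped at the 99th percentile, a choice made after seeing the data, 2 were above in P2. With bin edges shifted, 1 bin pair was called in Eed-/- and 2 in Ring1B-/-, and with libraries scaled to their signal the GCR as a whole rose by 0.41 in Eed-/- (adjusted p = 0.0208) and 1 level was called in Ring1B-/-. Apart from the primer factors, the cause of these shifts was not tested.

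Leaving out 1 library in turn gave 0 to 1 called ratios in Eed-/-, 0 to 1 levels and 0 to 1 ratios in Ring1B-/-, 0 to 1 ratios with wild-type *Ring1B* and 3 to 4 segments below in Ring1B-/-, against 6 with all libraries (3 without replicate 1 or 2, 4 without replicate 3); a lone library is then assumed to vary like the other groups. Replicate numbers are given by order only and pair nothing. With the replicate number as a block no call changed, and the GCR–*Lnp* level in Ring1B-/- was 0.85 (adjusted p = 0.200). A count test on the recovered reads was not run. Groups held 2 or 3 libraries, 1 for G53, ESC replicates correlated over single pairs with a Pearson r of 0.232 to 0.363, and the shallowest library held 216419 reads.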
